A study of Mus musculus with 6 samples.

Results

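Transcripts of the nuclear-encoded subunits of oxidative phosphorylation were compared between lungs of Sin3a mutant and control mouse embryos at E12.5. Members were chosen by gene name: symbols of the Ndufa, Ndufb, Ndufc, Ndufs and Ndufv series, Uqcr, Sdha to Sdhd, the Cox4 to Cox8 series and Atp5. A mean of at least 1 FPKM over all libraries was also required (fragments scaled to transcript length and to the mapped fragments of the library, a level per length). Of 24338 genes in the deposited table, 84 had such a name and 80 passed the level. By complex these were 36 genes of complex I, 4 of complex II, 8 of complex III, 15 of complex IV and 17 of complex V. The rule used levels over all 6 libraries and no difference between the groups.

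The respiratory chain sits in the inner mitochondrial membrane. Complexes I and II pass electrons from NADH and succinate to ubiquinone, complex III passes them on to cytochrome c, and complex IV reduces oxygen. Complexes I, III and IV pump protons, and complex V, the ATP synthase, makes ATP as protons flow back. Most subunits are encoded in the nucleus and imported, while a few core subunits are encoded by mitochondrial DNA. Genes of these subunits are transcribed in nearly all cells, with a few isoforms limited to heart, skeletal muscle, lung or testis.

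Each group held 3 libraries from whole lungs of C57BL/6 embryos. The mutants were Shh-Cre;Sin3a flox/flox and the controls Shh-Cre;Sin3a flox/+, so every library carried Cre and at least 1 floxed allele. Shh-Cre is active where Shh is expressed, which in the early lung is the epithelium, and the other lung cells of a mutant keep Sin3a. The labels do not say whether a library came from 1 embryo or from several, so p-values measure the spread between these libraries.

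Depth relative to control library 1, read from the FPKM steps of genes with few fragments, was 0.805 for control library 2 and 0.532 for control library 3. The mutant libraries 1, 2 and 3 had 0.505, 1.28 and 1.08, and absolute depth is unknown. Sin3a, which encodes a scaffold of histone deacetylase complexes, measured 19.5, 18.6 and 18.6 FPKM in control libraries 1, 2 and 3 and 18.8, 16.3 and 18.8 FPKM in mutant libraries 1, 2 and 3 (log2 change -0.074, SE 0.094, adjusted p = 0.677). Because all exons and all lung cells are counted together, this value does not check the genotype labels. The lung transcription factor gene Nkx2-1 was present in every library, at 10.2, 8.10 and 9.46 FPKM in the controls and 3.30, 4.19 and 4.75 FPKM in the mutants. Of 15 tested epithelial markers 9 fell and 0 rose, and the summed level of all 16 listed was 329 to 413 FPKM in controls and 117 to 163 FPKM in mutants. Erythroid markers summed to 20806 to 40930 FPKM in controls and 12916 to 16957 FPKM in mutants (3 of 12 fell, 0 rose). Mesenchymal markers summed to 1118 to 1342 FPKM and 1653 to 1970 FPKM (3 of 11 rose, 1 fell), and macrophage and leukocyte markers to 181 to 241 FPKM and 309.8 to 443 FPKM (2 of 12 rose, 0 fell). No listed marker of these cell types was at the table's floor in all libraries. In whole lungs, fewer cells of a type and less RNA per cell cannot be told apart, and the part of cell composition in the values below was not tested.

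Of the 80 genes, 2 fell in the mutant lungs and 0 rose. Cox7a2, a small subunit of cytochrome c oxidase (complex IV), was 1.38-fold lower, and Ndufa12, an accessory subunit of the matrix arm of complex I, was 1.43-fold lower. Calls rest on limma's test of log2(FPKM + 1) over 12742 genes with Benjamini-Hochberg adjustment, at an adjusted p under 0.05. The same rule called 3.34% of all tested genes, 1.63% lower and 1.71% higher (208 and 218 genes), so a count of 2 among 80 is near the background. After removal of globin and small RNA genes and rescaling, the split over all genes was 173 lower and 841 higher, 82.9% higher against 51.2%. The count of 426 calls over all genes also turned on single libraries. It was 61, 66 and 64 without control libraries 1, 2 and 3, and 795, 52 and 283 without mutant libraries 1, 2 and 3.

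Most members lay slightly below the control level. The log2 change was negative for 68 of 80 members, against 51.3% of all tested genes, and its median was -0.16 against -0.0082 for all tested genes. An unadjusted p under 0.05 was reached by 21 members on the lower side and 0 on the higher side, where 11.7% and 11.3% of all tested genes did so. In 23 members every mutant library was below every control library, and in 0 every mutant library was above (14.6% and 14.9% of all tested genes). The remaining 57 overlapped. The median was negative under every processing alternative run, but it came to -0.026 without globin and small RNA genes, where all genes had 0.106 (a shift of 0.114), and to -9.55e-05 after quantile normalization. The number of negative members was then 50 and 40, and it was 48 after correction for GC content and transcript length.

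**Figure D1:**
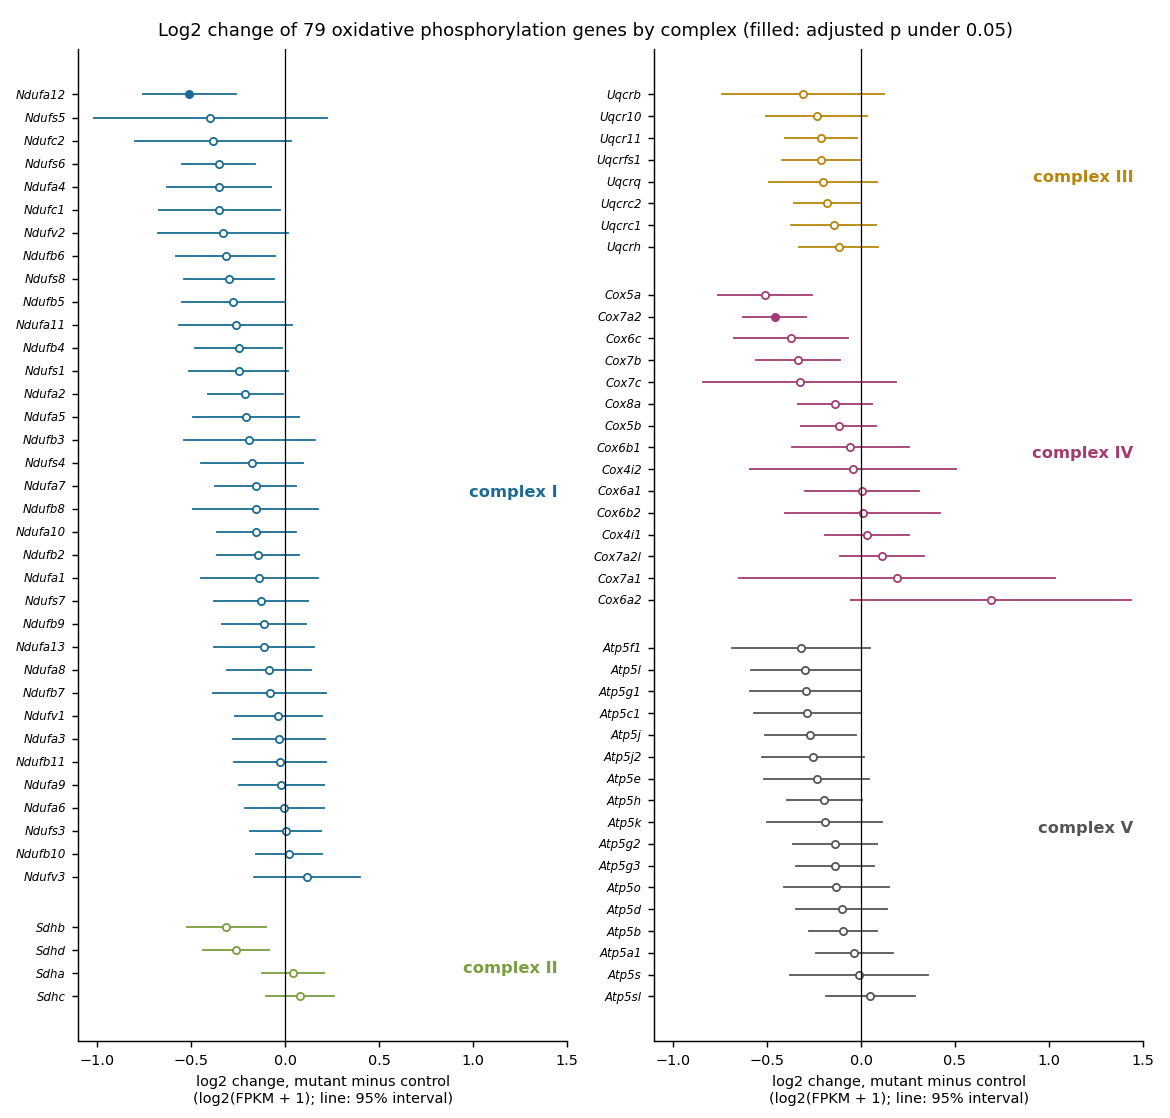
Log2 change of log2(FPKM + 1), mutant minus control, for 79 of the 80 members by complex, with the 95% interval of the limma fit as a line. Filled points are Ndufa12 and Cox7a2, the 2 members with an adjusted p under 0.05, and 67 of the 79 points lie below 0 (40 after quantile normalization).

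The members are abundant transcripts, and abundant transcripts in general had lower values in the mutants on the deposited scale. Of the 80 members, 71 had a mean of at least 100 FPKM, and their median log2 change was -0.18. The 1095 other genes at that level had a median of -0.18 as well. Every mutant library was below every control library in 31.0% of those members and in 37.0% of the other genes at that level. The 2 sets differed in level, since 60 of these members and 507 of the others had at least 200 FPKM. There the medians were -0.19 and -0.21, and 31.7% and 43.4% lay so. At 100 to 200 FPKM the medians were -0.037 (11 members) and -0.14 (588 others). The share of 37.0% is given below also beside sets that hold members under 100 FPKM. Among genes of 1 to 10 FPKM the median of all genes was 0.056. Members and other transcripts of that level thus had nearly the same median, a description and not a test.

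Summed over the 80 members, FPKM was 43372, 43243 and 38321 in control libraries 1, 2 and 3 and 36394, 37541 and 35643 in mutant libraries 1, 2 and 3. The mutant mean was 12.3% below the control mean, while the sum over all tested genes was 10.9% below. Control library 3 was the low library of its group and lay between the other controls and the mutants. As a share of FPKM without globin and small RNA genes, the members took 6.28%, 6.27% and 5.88% in the controls and 5.85%, 5.97% and 5.88% in the mutants. Control library 3 thus fell within the range of the mutants by this measure, and the groups overlapped. Leaving control library 3 out moved the members' median log2 change to -0.23, and leaving out any other library gave -0.13 to -0.17.

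**Figure D2:**
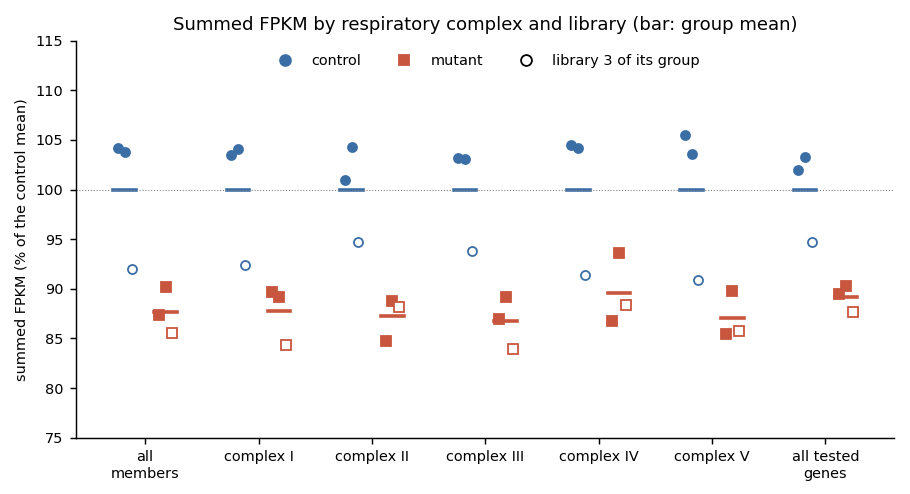
Summed FPKM of the members of each complex in every library, as a percent of the mean of the 3 control libraries, with bars at the group means and open symbols for library 3 of each group. The sums of complexes I, II, III and V and of all tested genes do not overlap between groups, whereas those of complex IV do.

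Complex I has a matrix arm, which takes electrons from NADH along iron-sulfur clusters, and a membrane arm, which pumps protons. Of its 36 members 1 fell, Ndufa12, and 0 rose. The log2 change was negative for 33 members, the median was -0.16, and in 10 members the groups did not overlap, each with the mutants lower. That was 27.8%, against 14.6% of all tested genes and 37.0% of genes outside the members with at least 100 FPKM. Without globin and small RNA genes the complex I median was -0.026, and after quantile normalization it was -9.55e-05.

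Ndufa12, on chromosome 10 from 94199009 to 94220948 (GRCm38), measured 439.8, 534 and 444 FPKM in control libraries 1, 2 and 3 and 304, 345 and 345 FPKM in mutant libraries 1, 2 and 3. All mutants were below all controls, and control library 2 was the highest of the 6 (log2 change -0.51, SE 0.11, adjusted p = 0.0489). Its adjusted p was 0.0585 to 0.172 when 1 library was left out, so the call ended whichever library that was. Ndufs6, another accessory subunit of the matrix arm, measured 542, 581 and 534 FPKM in the controls and 401, 442 and 454 FPKM in the mutants (log2 change -0.35, adjusted p = 0.0641). Its groups did not overlap either, but it did not pass. Exons of Mrpl36 on the other strand overlap those of Ndufs6, and since strand was not marked by the kit, their reads cannot be told apart.

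Ndufa4 carries a complex I name but is now assigned to complex IV. It was the most abundant gene named for complex I, at 1605, 1699.5 and 1542 FPKM in the controls and 1429.6, 1326 and 1071 FPKM in the mutants (log2 change -0.35, SE 0.12, adjusted p = 0.14). Every mutant was below every control, and mutant library 3 was the lowest by far. Counting it with complex IV changed the complex I median little (-0.16) and gave complex IV -0.088 in place of -0.057. Its paralog Ndufa4l2 had a mean just under the level required, at 0.391, 0.883 and 0.435 FPKM in the controls and 1.27, 1.41 and 1.41 FPKM in the mutants. There the mutants were above all controls, and without a filter on low values the log2 change was 0.60 (adjusted p = 0.0862).

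The 7 core subunits encoded in the nucleus carry the flavin and the iron-sulfur clusters of the matrix arm, and 0 of them passed the test. Ndufs8, which binds iron-sulfur clusters, had the smallest p, at 501, 522 and 433 FPKM in the controls and 364, 392 and 427 FPKM in the mutants (log2 change -0.30, SE 0.10, adjusted p = 0.144). Its groups were separated by less than the range within either of them. Ndufs1, the largest of these subunits, measured 94.0, 96.3 and 91.2 FPKM in the controls and 90.0, 80.7 and 67.6 FPKM in the mutants (log2 change -0.25, adjusted p = 0.243), also without overlap. Ndufv2, which holds a cluster next to the flavin site, had a log2 change of -0.33, with mutant library 1 inside the control range. Ndufv1, which binds the flavin and NADH, had -0.037, Ndufs7 -0.13 and Ndufs3 0.003. Ndufs3 was nearly level at 167, 153 and 145 FPKM in the controls and 156, 155 and 155 FPKM in the mutants, and the sign of its difference turned when control library 2 or 3 or mutant library 1 was left out. The locus given for Ndufs7 also holds many other genes, Atp5d of complex V among them, so its coordinates do not delimit the gene.

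Among the 9 accessory subunits of the matrix arm 8 were negative, with a median of -0.18, and among the 19 of the membrane arm 18 were negative, with a median of -0.15. Membrane arm subunits without overlap included Ndufb6, at 549, 590.1 and 566 FPKM in the controls and 493, 499 and 386 FPKM in the mutants (log2 change -0.32, adjusted p = 0.158). Ndufc1 measured 521, 534 and 539 FPKM in the controls and 482, 451 and 332 FPKM in the mutants (log2 change -0.35, adjusted p = 0.188). In both genes mutant library 3 was well below the other mutants. At the other end, Ndufv3, a small accessory subunit of the matrix arm, had the highest difference in complex I, 0.12. Ndufa3, the second gene by level, measured 1199, 1270.3 and 1009 FPKM in the controls and 1098, 1098 and 1194 FPKM in the mutants, a log2 change of -0.032 that was positive without globin and small RNA genes, after quantile normalization and after GC correction.

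Complex II, succinate dehydrogenase, belongs to both the respiratory chain and the citric acid cycle, and all of its subunits are nuclear. Of its 4 members 0 passed the test, and they split evenly. Sdhb, the iron-sulfur subunit, measured 569, 574 and 501 FPKM in the controls and 411, 453 and 459 FPKM in the mutants (log2 change -0.31, SE 0.09, adjusted p = 0.102). Sdhd, a membrane anchor, measured 329, 344 and 322 FPKM in the controls and 282, 285 and 262 FPKM in the mutants (log2 change -0.26, adjusted p = 0.104). In both genes the mutants were below all controls. So were they in 14.6% of all tested genes and in 37.0% of genes outside the members with at least 100 FPKM. Sdhb passed only after correction for GC content and transcript length (adjusted p = 0.0228), and its adjusted p ranged from 0.0228 to 0.414 over the alternatives.

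The partner subunits did not follow. Sdha, the flavoprotein that oxidises succinate with Sdhb, measured 161, 172 and 166 FPKM in the controls and 171, 171 and 171 FPKM in the mutants, a log2 change of 0.042 with a 95% interval of -0.12 to 0.21. Sdhc, the other anchor, measured 128, 136 and 125 FPKM in the controls and 133, 134 and 144 FPKM in the mutants, with 0.079 and an interval of -0.10 to 0.26. The intervals of Sdha and Sdhc exclude the estimates of Sdhb and Sdhd, although the difference between the genes was not tested. With 2 genes on each side of 0, the complex II median was -0.11, and it was positive without globin and small RNA genes (0.020) and after quantile normalization (0.048).

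Complex III, ubiquinol-cytochrome c reductase, had 8 members. Of these 0 passed, although 8 were negative, against 51.3% of all tested genes. The median was -0.21 (-0.077 without globin and small RNA genes, -0.020 after quantile normalization). Uqcr11, a small membrane subunit and the most abundant of all 80 members, measured 1633, 1718 and 1549 FPKM in control libraries 1, 2 and 3 and 1416, 1479 and 1334 FPKM in mutant libraries 1, 2 and 3. The lowest control was above the highest mutant (log2 change -0.21, SE 0.082, adjusted p = 0.181), while after quantile normalization the difference was 0.029. Uqcrc2, a core protein of the matrix side, measured 177, 172 and 162 FPKM in the controls and 148, 155 and 147 FPKM in the mutants (log2 change -0.18, adjusted p = 0.21). Uqcrfs1, the Rieske iron-sulfur protein that receives electrons from ubiquinol, measured 138, 144 and 139 FPKM in the controls and 134, 119 and 112 FPKM in the mutants (log2 change -0.21, adjusted p = 0.212). Those genes were also without overlap. In all, 3 of the 8 members (37.5%) had every mutant below every control. The share was 14.6% of all tested genes and 37.0% of genes outside the members with at least 100 FPKM.

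Other complex III genes overlapped between groups. Uqcrb, which helps bind ubiquinone, had the most negative estimate of the complex, -0.31, but it measured 849, 879 and 812 FPKM in the controls and 883, 713 and 508 FPKM in the mutants, with mutant library 1 above every control. Uqcr10 had a log2 change of -0.24, Uqcrq -0.20, Uqcrc1, the other core protein, -0.15 and Uqcrh, the hinge protein that meets cytochrome c, -0.12. The signs of Uqcrq, Uqcrc1 and Uqcrh turned after quantile normalization, and those of Uqcrb and Uqcrh after GC correction.

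Complex IV, cytochrome c oxidase, passes the electrons to oxygen. Of 15 members 1 fell, Cox7a2, and 0 rose. The log2 change was negative for 9 members, the median was -0.057, and in 4 members the mutants lay below all controls. Those were 26.7%, against 14.6% of all tested genes and 37.0% of genes outside the members with at least 100 FPKM. The median was positive without globin and small RNA genes (0.070), after quantile normalization (0.059), after GC and length correction (0.062) and without control library 1 (0.016), and it was -0.19 without control library 3.

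Cox7a2 encodes the isoform of subunit VIIa found in most tissues and lies on chromosome 9 from 79755241 to 79759853. It measured 529.7, 509 and 499.5 FPKM in control libraries 1, 2 and 3 and 378, 379 and 361 FPKM in mutant libraries 1, 2 and 3. The spread within each group was small beside the gap between them, and the group means were 513 ± 15.5 and 373 ± 9.82 FPKM (SD, n = 3 per group). The log2 change was -0.46 (SE 0.072, 95% interval -0.63 to -0.29, adjusted p = 0.0251). The call held without mutant library 1 or 3 (adjusted p from 0.035) and ended without mutant library 2 or any control library, with an adjusted p of up to 0.134. No annotated exon of another gene overlapped those of Cox7a2 or Ndufa12.

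Cox5a, a matrix-facing subunit bound to the catalytic core, had a larger estimate with more spread. It measured 404, 403 and 390.1 FPKM in control libraries 1, 2 and 3 and 283, 318 and 243 FPKM in mutant libraries 1, 2 and 3, and the highest mutant was well below the lowest control. The log2 change was -0.51 (SE 0.11, adjusted p = 0.0504), just above the threshold, and over the alternatives its adjusted p ranged from 0.0412 to 0.188. Exons of Gm26631 on the other strand overlap those of Cox5a. Cox7b, a membrane subunit, measured 282, 284 and 277 FPKM in the controls and 242, 232 and 196 FPKM in the mutants (log2 change -0.34, adjusted p = 0.102). Cox6c, also a membrane subunit, measured 1081, 1043 and 978 FPKM in the controls and 826, 933 and 662 FPKM in the mutants (log2 change -0.37, adjusted p = 0.151). In these genes too all mutants lay below all controls.

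The sequences just upstream of Cox7a2 and Cox5a, the complex IV members with the smallest p, are shown for what they hold and lack. They come from RefSeq on GRCm38.p6, run 5′ to 3′ towards the gene's start, and stop at the first base that GENCODE M21 annotates as exon.
Cox7a2 (chr9:79759879-79760103, minus strand): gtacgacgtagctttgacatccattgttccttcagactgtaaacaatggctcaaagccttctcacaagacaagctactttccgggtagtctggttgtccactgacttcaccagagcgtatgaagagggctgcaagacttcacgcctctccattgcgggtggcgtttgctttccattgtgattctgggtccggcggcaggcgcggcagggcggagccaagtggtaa
Cox5a (chr9:57520982-57521231, plus strand): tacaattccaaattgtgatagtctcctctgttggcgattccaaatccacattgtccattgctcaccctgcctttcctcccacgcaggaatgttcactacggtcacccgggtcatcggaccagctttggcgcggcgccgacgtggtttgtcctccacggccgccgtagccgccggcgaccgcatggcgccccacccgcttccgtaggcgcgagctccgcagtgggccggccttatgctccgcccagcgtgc
Neither has capitals, which would mark a match on either strand to the NRF1 motif (GCGCA and GCGC with any base between) or the ETS motif CCGGAAG. No match says only that those letters are not in these windows.

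The other subunits of complex IV did not separate. Cox4i1, which binds the catalytic core and starts its assembly, measured 1020.2, 945 and 880.1 FPKM in the controls and 892, 973 and 1046 FPKM in the mutants (log2 change 0.033), and the sign turned without control library 3 or mutant library 3. Cox6a1 had a log2 change of 0.005, which turned negative without control library 3 or mutant library 2 or 3. Cox6b1, the most abundant complex IV gene, measured 1330.4, 1334 and 978 FPKM in the controls and 1083, 1174 and 1212 FPKM in the mutants, with control library 3 below every other library. Its log2 change of -0.057 was positive without globin and small RNA genes, after quantile normalization, after GC correction and without control library 1 or 2. Cox5b had -0.12 and Cox8a -0.14, both positive after quantile normalization. Cox7c had -0.33 with a wide spread, at 436, 521 and 415 FPKM in the controls and 497, 368 and 261 FPKM in the mutants, and was 0.0063 after GC correction. Cox7a2l, which encodes a factor related to subunit VIIa, measured 137, 142 and 127 FPKM in the controls and 152, 156 and 131 FPKM in the mutants. Its log2 change of 0.11 had an interval of -0.11 to 0.33, above the estimate of Cox7a2.

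**Figure D3:**
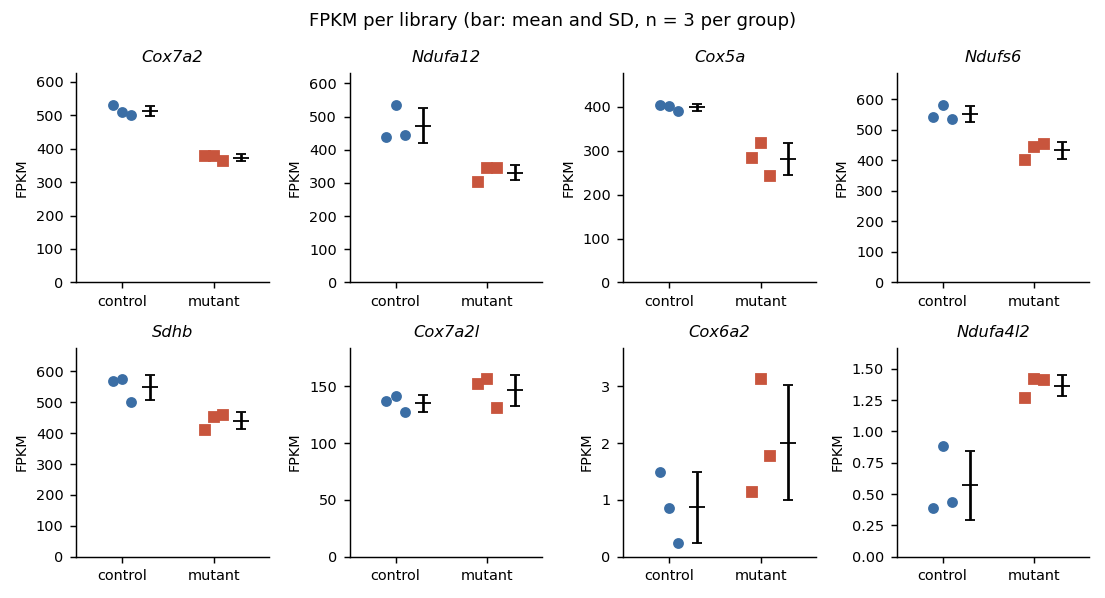
FPKM of 8 genes in each of the 6 libraries, with the mean and SD of each group (n = 3) beside the points. Cox7a2, Ndufa12, Cox5a, Ndufs6 and Sdhb have all mutant points below all control points, Cox7a2l and Cox6a2 overlap, and Ndufa4l2, just under the level required, has all mutant points above.

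Isoforms known from particular tissues stood below their common partners in FPKM. Cox4i2, the lung isoform of subunit IV, measured 8.04, 6.66 and 4.93 FPKM in the controls and 4.34, 8.40 and 6.49 FPKM in the mutants. It took 0.484% to 0.855% of the summed Cox4i1 and Cox4i2 level over the 6 libraries, and its log2 change of -0.043 turned positive without globin and small RNA genes, after GC correction and without control library 1 or mutant library 1. Cox6b2, known from testis, measured 40.9, 38.8 and 32.6 FPKM in the controls and 28.4, 41.4 and 44.8 FPKM in the mutants. It took 2.55% to 3.57% of its pair with Cox6b1 and had a log2 change of 0.008. Cox7a1, the heart and muscle isoform of subunit VIIa, measured 5.03, 5.004 and 2.21 FPKM in the controls and 3.78, 8.12 and 2.98 FPKM in the mutants (log2 change 0.19, adjusted p = 0.792), with mutant library 2 the highest. Its share of the summed Cox7a1 and Cox7a2 level was 0.441% to 0.974% in the controls and 0.817% to 2.10% in the mutants.

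Cox6a2, another heart and muscle isoform, had a mean just above the level required, which the mutants reached (2.01 FPKM) and the controls did not (0.869 FPKM). It measured 1.49, 0.865 and 0.248 FPKM in the controls and 1.13, 3.12 and 1.78 FPKM in the mutants (log2 change 0.69, adjusted p = 0.246). Its groups overlapped, and it was highest in mutant library 2. Neither it nor Cox7a1 passed the test. Of 7 tested heart muscle markers, 2 rose (Myl4 and Myl7) and 0 fell, and the summed level of all 12 listed was 207 to 282 FPKM in controls and 342 to 532 FPKM in mutants. None of the 12 was at the floor in every library, and mutant library 2 had the highest sum. Their part in the values of Cox6a2 and Cox7a1 was not tested. Of 5 tested skeletal muscle markers 0 passed, with sums of 4.58 to 23.5 FPKM in controls and 4.86 to 11.3 FPKM in mutants. Cox7b2 and Cox8b, also tissue isoforms, were under the level required. Cox7b2 measured 0.188, 0.485 and 0.01 FPKM in the controls and 0.01, 0.01 and 0.32 FPKM in the mutants. Cox8b measured 0.854, 0.567 and 0.01 FPKM in the controls and 0.01, 0.01 and 0.673 FPKM in the mutants. Their groups overlapped, and here the control mean was the higher (0.228 against 0.113 FPKM for Cox7b2, 0.477 against 0.231 FPKM for Cox8b). Every library gave Cox8c the floor value of 0.01 FPKM.

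Complex V joins a catalytic head to a membrane rotor through a central and a peripheral stalk. Of its 17 members 0 passed, 16 were negative, the median was -0.19 and in 4 members the mutants lay below all controls. Those were 23.5%, against 14.6% of all tested genes and 37.0% of genes outside the members with at least 100 FPKM. Without globin and small RNA genes the median was -0.063, after quantile normalization -0.029 and without control library 1 -0.11. Atp5j, coupling factor 6 of the peripheral stalk, had the smallest p, at 1096, 1131 and 1174 FPKM in the controls and 1038, 974 and 819 FPKM in the mutants (log2 change -0.27, SE 0.10, adjusted p = 0.175). Atp5c1, the gamma subunit that turns inside the head, measured 713, 728 and 641 FPKM in the controls and 629, 609.5 and 477 FPKM in the mutants (log2 change -0.29, adjusted p = 0.213). Both were without overlap, each with mutant library 3 the lowest.

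Atp5l, a membrane subunit, measured 1076, 1017 and 825 FPKM in the controls and 744, 882 and 744 FPKM in the mutants (log2 change -0.30, adjusted p = 0.21), and control library 3 fell below mutant library 2. The 4 peripheral stalk genes had a median of -0.23, the 3 other membrane genes -0.26, the 3 c ring genes -0.14 and the 5 genes of the head and central stalk -0.10. Atp5b, the catalytic beta subunit, measured 1215, 1203 and 1095 FPKM in the controls and 1076, 1102 and 1110.2 FPKM in the mutants. The groups overlapped, the log2 change was -0.094 and it was positive without globin and small RNA genes and after quantile normalization. Atp5j2, a membrane subunit, was the most abundant gene of the complex at 1385, 1359 and 1082 FPKM in the controls and 983, 1082 and 1123 FPKM in the mutants (log2 change -0.26, adjusted p = 0.238). Atp5s and Atp5sl, which carry the name without being structural subunits, had log2 changes of -0.01 and 0.05, and both signs turned without mutant library 3.

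Subunit c of the rotor ring is encoded by 3 genes whose mature proteins are identical. Atp5g1 measured 658, 651 and 645 FPKM in the controls and 437, 557 and 615 FPKM in the mutants (log2 change -0.29, adjusted p = 0.22), without overlap but with a wide spread among the mutants. Atp5g2 and Atp5g3 had log2 changes of -0.14 and -0.14, and both signs turned after quantile normalization. Atp5g1 took 27.1% to 30.0% of the c ring level in the controls and 22.8% to 29.4% in the mutants. The make-up of the c ring transcripts therefore overlapped between groups.

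NRF1 and the ETS factor GABP are transcription factors known for binding promoters of respiratory chain genes. Windows of 250 bases upstream of the RefSeq start (GRCm38.p6) were matched by symbol for 64 of the 80 members, 69 windows in all. The NRF1 motif (GCGCA and GCGC with any base between), searched on both strands, was in 20.3% of these windows (13 genes) and in 3.74% of all 32851 windows. The ETS motif CCGGAAG was in 17.4% of the members' windows (12 genes) and in 6.91% of all windows; in the 3 members with both motifs the matches do not overlap. A match is a description of the sequence and no evidence of binding here. Sites in members described above are shown with 10 bases on each side where the window allows, 5′ to 3′ on the gene's strand, with the match in capitals. They were chosen to set genes with lower values in the mutants beside Sdha and Cox6a1, which were level. Sdha and Cox6a1 hold further NRF1 matches that are not shown. Matches in other members are not shown either, such as the ETS matches of Ndufs3 and Cox6b1, whose groups overlapped.
Ndufs6 (chr13:73328483-73328508, minus strand): cgactgctgtGCGCCTGCGCcggcac
Sdhd (chr9:50603909-50603938, minus strand): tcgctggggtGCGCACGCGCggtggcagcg
Atp5c1 (chr2:10080433-10080459, minus strand): ctgagctcccGCGCACGCGCactgagt
Sdha (chr13:74350319-74350348, minus strand): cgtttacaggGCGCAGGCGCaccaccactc
Cox6a1 (chr5:115349101-115349130, minus strand): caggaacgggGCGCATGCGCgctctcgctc
Uqcr11 (chr10:80406871-80406897, minus strand): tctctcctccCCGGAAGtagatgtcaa
Atp5j (chr16:84835021-84835047, minus strand): gctgagggacCCGGAAGcacttaccct
Sdhd (chr9:50603879-50603905, minus strand): cgtctcctgcCTTCCGGttcacgcttc
Cox6a1 (chr5:115348959-115348984, minus strand): cccatttccgCTTCCGGcgcgccggt
The NRF1 matches of Ndufs6 and the ETS matches of Sdhd and Cox6a1 read on the opposite strand. The deposited locus of Atp5j also holds Gabpa, which encodes the ETS subunit of GABP.

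The medians of members with and without these letters lay close together. The 13 with an NRF1 match had a median log2 change of -0.21, the 12 with an ETS match -0.20 and the 42 with neither -0.15. The mutants lay below all controls in 5, 5 and 11 of them. So did 14.6% of all tested genes and 37.0% of genes outside the members with at least 100 FPKM. Cox7a2 and Ndufa12 were among the 42. The level of Nrf1 itself was 32.5, 31.2 and 33.8 FPKM in the controls and 27.8, 25.5 and 32.5 FPKM in the mutants (log2 change -0.18, adjusted p = 0.349), with overlap. Gabpa overlapped too, at 13.9, 14.7 and 19.4 FPKM in the controls and 19.2, 14.6 and 13.2 FPKM in the mutants (log2 change -0.031, adjusted p = 0.937). Gabpb1, a partner subunit of GABP, measured 32.2, 31.4 and 28.7 FPKM in the controls and 28.5, 27.2 and 21.8 FPKM in the mutants (log2 change -0.25, adjusted p = 0.259).

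Related mitochondrial genes were counted by lists. Of all tested genes, 1.63% were called lower and 1.71% higher. Of 6 tested subunits or partners whose names fall outside the rule, 1 fell and 0 rose. That gene was Ndufab1, the mitochondrial acyl carrier protein that is also a complex I subunit, at 275, 253 and 264 FPKM in the controls and 186, 208 and 185 FPKM in the mutants (log2 change -0.45, adjusted p = 0.0365, at most 0.143 when a library was dropped). In all 6 genes the mutants lay below all controls, and the median was -0.44. So did 14.6% of all tested genes and 37.0% of genes outside the members with at least 100 FPKM. Each of the 6 had a mean above 100 FPKM. Cycs, which encodes cytochrome c, measured 146, 163 and 150.3 FPKM in the controls and 118, 99.4 and 71.1 FPKM in the mutants (log2 change -0.69, adjusted p = 0.0748), with mutant library 3 the lowest. Atpif1, the inhibitor of the ATP synthase, had -0.21. The 13 subunits encoded by mitochondrial DNA were not analysed here.

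Of 47 tested assembly factors 1 fell and 0 rose, 38 were negative and the median was -0.15. Over all tested genes 51.3% were negative. The factors had a median level of 28.4 FPKM. Genes of 10 to 50 FPKM outside the members had a median log2 change of -0.014, and the difference was not tested. The gene that fell was Uqcc2, an assembly factor of complex III, at 630.3, 660.4 and 559 FPKM in the controls and 433, 455 and 464 FPKM in the mutants (log2 change -0.45, adjusted p = 0.0432). Ndufaf6 and Foxred1, assembly factors of complex I, had log2 changes of -0.46 and -0.30 (adjusted p = 0.0603 and 0.0935). Among 18 genes of the citric acid cycle and pyruvate dehydrogenase 1 fell and 0 rose, and the median was -0.083. This was Idh3a, a subunit of the NAD-dependent isocitrate dehydrogenase, at 68.4, 71.4 and 68.5 FPKM in the controls and 52.8, 50.6 and 47.3 FPKM in the mutants (log2 change -0.46, adjusted p = 0.0337). The 18 genes had a median level of 97.2 FPKM. Genes of 50 to 100 FPKM outside the members had a median log2 change of -0.10. Suclg1, of succinyl-CoA ligase, and Pdhx, of the pyruvate dehydrogenase complex, had -0.19 and -0.15.

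Of 11 carriers and channels 1 fell and 0 rose, with a median of -0.11. Their median level was 166 FPKM. Genes of 100 to 200 FPKM outside the members had a median log2 change of -0.14. Slc25a5, an exchanger of ADP and ATP across the inner membrane, measured 748, 807 and 695 FPKM in the controls and 559.6, 524 and 483 FPKM in the mutants (log2 change -0.52, adjusted p = 0.0342). Slc25a13, an aspartate and glutamate carrier, had -0.41 (adjusted p = 0.0608), and Vdac3, a channel of the outer membrane, -0.35. Of 17 regulators of mitochondrial biogenesis 0 passed, and the median was -0.18. The regulators had a median level of 13.4 FPKM. Genes of 10 to 50 FPKM outside the members had a median log2 change of -0.014, and the difference was not tested. Ssbp1, which binds single-stranded mitochondrial DNA, had the smallest p of the 17 regulators (log2 change -0.33, adjusted p = 0.158). Esrra, a nuclear receptor gene, had -0.31. When a library was dropped, the highest adjusted p was 0.18 for Uqcc2, 0.157 for Idh3a and 0.162 for Slc25a5, so each of these calls ended without some library.

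Base composition moved with the values within the mutant group. Over the 79 members with a matched transcript, Spearman's rho between GC content and the deviation from the mutant mean was -0.60 in mutant library 1, -0.14 in mutant library 2 and 0.59 in mutant library 3. Over 12277 tested genes rho was -0.68, 0.066 and 0.68. The 3 deviations of a gene add to 0, so opposite slopes in mutant libraries 1 and 3 are not independent. In control libraries 1, 2 and 3 rho of the members with GC content was 0.25, -0.043 and -0.15. With transcript length it was -0.25, -0.24 and 0.32 in the controls and 0.065, -0.21 and 0.13 in the mutants. These correlations run across genes that share a library, and genes are not independent replicates. Members had a median GC content of 51.3% against 50.2% for tested genes and a median transcript length of 865 against 3056 bases. The 39 members of lower GC content had a median log2 change of -0.25, and in 15 of them the mutants lay below all controls. In the 40 of higher GC content the median was -0.11, and 8 lay so. Of all tested genes 14.6% lay so, and of genes outside the members with at least 100 FPKM 37.0%. After loess correction of each library for GC content and length the medians were -0.075 and -0.030, and that of all 79 was -0.046. This correction takes out any group difference shared by genes of like GC content and length, whatever its source. It therefore cannot single out base composition, whose part in the group difference was not tested.

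**Figure D4:**
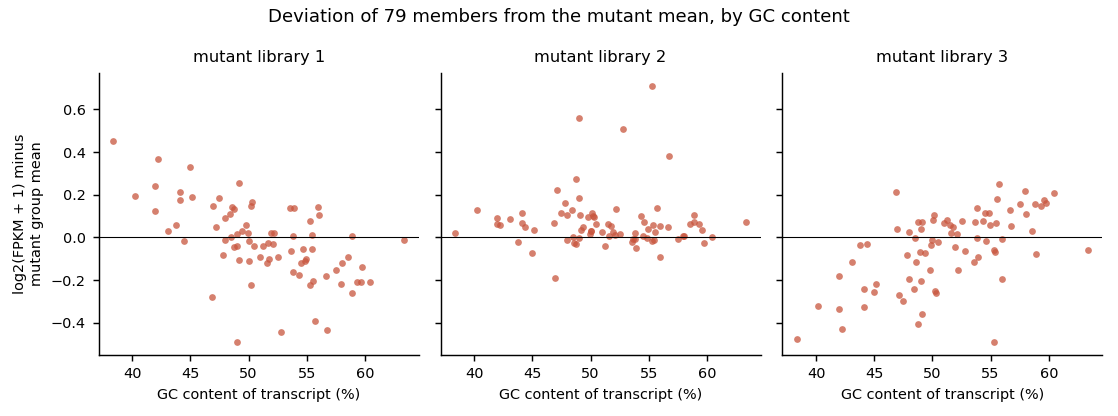
Deviation of 79 members from the mutant group mean of log2(FPKM + 1) against GC content of the transcript in percent, 1 panel for each mutant library, each point a gene. Points fall with GC content in mutant library 1 (rho -0.60), rise in mutant library 3 (rho 0.59) and show little slope in mutant library 2 (rho -0.14).

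Under the corrected values 4 members fell, Cox5a, Cox7a2, Ndufa12 and Sdhb, and 0 rose, where 1406 of all tested genes were called. Without globin and small RNA genes, Cox5a and Cox7a2 fell and 1014 genes were called in all. Relative to the median of all genes under that scaling, the members' median was -0.13, against -0.15 as deposited. The same measure was -0.0017 after quantile normalization and -0.047 after GC and length correction. With all 6 libraries and no replicate block, Cox7a2 was called under every alternative run except quantile normalization.

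**Figure D5:**
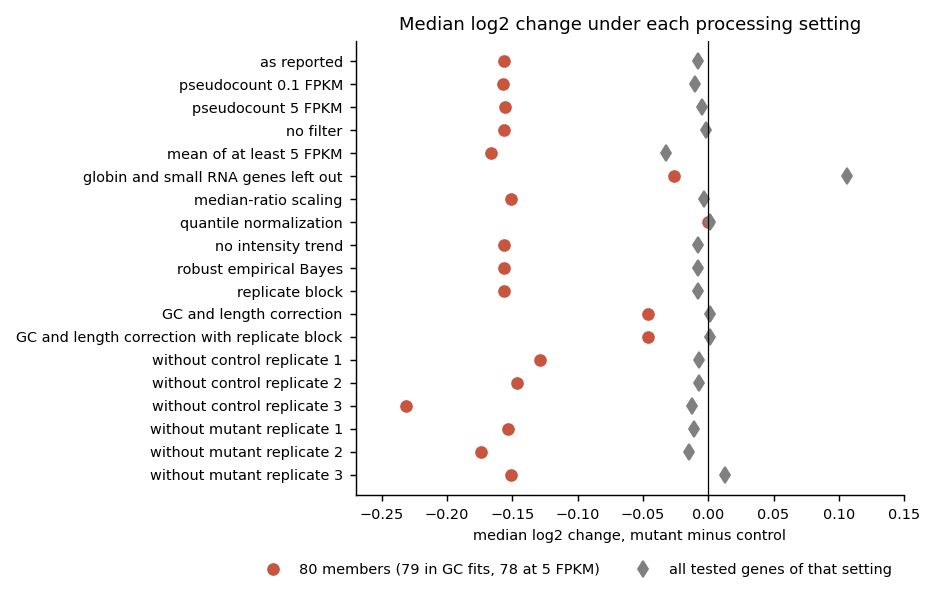
Median log2 change, mutant minus control, of the members (circles) and of all tested genes (diamonds) under each processing setting. Circles run from -0.23 without control library 3 to nearly 0 after quantile normalization, and the diamond moves to 0.106 without globin and small RNA genes.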

How the data were processed

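RNA-seq libraries were made from whole embryonic lungs with the SMARTer Ultra Low Input kit, which does not mark strand, and read as 75 bp pairs, per the labels. The authors deposited 1 table of FPKM values per gene with loci; TopHat, Bowtie2 and Cufflinks and the build mm10 (GRCm38) are named in the submitters' processing notes, with versions not given in the sources used here. Of 24341 genes, 3 with a failure mark in mutant library 1 were left out. A value of 0.01 FPKM is the table's floor. Loci are counted from 1.

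FPKM are not counts, so values were taken as log2(FPKM + 1), a scale that understates the change of low genes. Tests covered 12742 genes whose mean reached 1 FPKM, run with limma 3.58.1 in R 4.3.3 (3 mutant against 3 control libraries, intensity trend, 2-sided, Benjamini-Hochberg over all tested genes, adjusted p under 0.05); every adjusted p is from this fit unless another setting is named. On simulated data with 12742 genes and 200 changed in this comparison, 83% of log2 changes of 1 and 8% of log2 changes of 0.5 were recovered. The simulation shuffled the SDs between genes regardless of level, so these shares do not describe the members, which are mostly abundant.

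The members and gene lists were chosen with earlier results of these data known. Genes named were members past the threshold, the 3 with the smallest p and the 2 most abundant of each complex, tissue isoforms and paralogs, nuclear core subunits of complex I, the members nearest the FPKM threshold, the 3 with the smallest p of each list, and Sin3a. Of these, 1 gene is not reported here. Ndufb6, Ndufc1, Ndufv3, Sdha, Uqcrb, Uqcrq, Uqcrc1, Uqcrh, Cox5b, Cox6c, Cox7c, Atp5s, Atp5sl, Nrf1 and Gabpa were added after their values were seen. Alternatives were other pseudocounts, filters, scalings, variance settings and thresholds, a replicate block, a loess correction (span 0.3) for GC content and length of GENCODE M21 transcripts, available for 96.4% of tested genes, and leaving out each library. Globin (9) and small RNA genes (1294) were left out in 1 scaling. Relative depth was the most frequent ratio between libraries among genes of up to 0.3 FPKM. Plots were drawn in Python 3.11.15 (matplotlib 3.10.9).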

Additional observations from a re-analysis of the deposited data

How the results depend on the processing

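Over all tested genes 426 were called, and the count was 242 without a filter, 1014 without globin and small RNA genes, 1406 after GC and length correction, 1138 at an adjusted p under 0.1, 52 with the replicate block and 52 to 795 with 1 library left out. Among the members 2 were called, and the count was 1 without a filter, with a minimum mean of 5 FPKM and without the intensity trend, 4 after GC and length correction and at an adjusted p under 0.1, 0 after quantile normalization, and 0 to 1 with 1 library left out. With the replicate block it was 0, also with the GC correction. The labels do not say whether the numbers pair mutant and control libraries, which were treated as unpaired. The deviations of same-numbered libraries had r of -0.089, -0.078 and -0.026. With 3 libraries a group these values cannot settle whether the libraries were paired.

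Medians moved with scaling. Without globin and small RNA genes they were -0.026 (all members), -0.026 (I), 0.020 (II), -0.077 (III), 0.070 (IV) and -0.063 (V). After quantile normalization they were -9.55e-05 (all members and I), 0.048 (II), -0.020 (III) and -0.029 (V). After GC and length correction, with or without the replicate block, they were -0.046, -0.068, -0.048, -0.044 and -0.067 for all members and complexes I, II, III and V. With 1 library left out they ran from -0.23 to -0.13 (all members), -0.23 to -0.13 (I), -0.12 to -0.084 (II), -0.23 to -0.15 (III), -0.19 to 0.016 (IV) and -0.25 to -0.11 (V). The cause of these shifts was not tested.

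Single genes turned sign as follows. Leaving out globin and small RNA genes gave Ndufa3 0.098, Cox6b1 0.073, Atp5b 0.036, Cox4i2 0.070, Ndufv1 0.093, Uqcrh 0.011, Cox5b 0.012, Atp5s 0.11, Gabpa 0.091 and Sin3a 0.050. Quantile normalization gave Ndufa3 0.18, Uqcr11 0.029, Cox6b1 0.18, Atp5b 0.089, Cox8a 0.055, Atp5g2 0.040, Atp5g3 0.044, Ndufs7 0.067, Uqcrq 0.0049, Uqcrc1 0.019, Uqcrh 0.068, Cox5b 0.069 and Ndufv1 0.081. The GC correction, with or without the replicate block, gave Ndufa3 0.18, Cox6b1 0.13, Cox4i2 0.062, Uqcrb 0.0077, Uqcrh 0.097, Cox5b 0.046, Cox7c 0.0063, Atp5s 0.22, Gabpa 0.080 and Atp5g3 0.032. With 1 library left out, ranges that crossed 0 were -0.13 to 0.037 (Ndufa3), -0.21 to 0.018 (Cox6b1), -0.023 to 0.092 (Cox4i1), -0.23 to 0.17 (Cox4i2), -0.072 to 0.13 (Cox6a1), -0.12 to 0.20 (Cox6b2), -0.16 to 0.44 (Cox7a1), -0.043 to 0.059 (Ndufs3), -0.11 to 0.15 (Atp5s), -0.032 to 0.11 (Atp5sl), -0.18 to 0.11 (Gabpa) and -0.10 to 0.053 (Ndufv1). In this balanced design the replicate block leaves every log2 change as it is. The other genes whose log2 change is given kept their direction under the alternatives run. Precision is limited by 3 libraries a group and, for low genes, by the shallower control library 3 and mutant library 1.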
